A study of Mus musculus with 58 samples.

Results

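The 44 genes described here are homeobox and T-box transcription factors, together with the zinc finger factor Zic1, that mark position along the body axis or the limb during development. They were chosen by symbol from the 11603 rows of the deposited mouse adipocyte table: every Hox gene, and every gene whose symbol begins with Tbx, Irx, Meis, Zic, Lhx, Meox, Emx, Pitx, Prrx, Msx or Dlx, with the sine oculis homologues, the Pbx genes, Shox2 and En1. The rule itself uses symbols and no measured value. The 44 comprised 20 Hox genes, 6 genes of the TALE class (among them Meis2, Meis3 and Pbx3), 5 T-box genes (Tbx1, Tbx2, Tbx3, Tbx15 and Tbx18), 5 sine oculis and Iroquois homologues (among them Six4, Six5 and Irx3) and 8 others (Emx2, En1, Lhx8, Meox2, Pitx3, Prrx1, Shox2 and Zic1). Irx5, Meox1, Msx1 and Msx2 were not analysed here.

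The study set brown, beige and white fat cells of the mouse side by side after cold and after a return to warmth. RNA on ribosomes was pulled down from C57BL/6J mice that carried the NuTRAP allele, which tags ribosomes with GFP after Cre recombination, with Cre driven from the Ucp1 or the Adipoq promoter. Ucp1 is the uncoupling protein of thermogenic fat cells and Adipoq is made by fat cells of every kind. Because recombination is permanent, a cell tagged through Ucp1 stays tagged after it stops making Ucp1. The labels do not say which of the 2 lines gave which library, and they give neither age nor sex. The libraries fall into 5 groups. Cold brown (n = 5) was interscapular brown fat, and cold beige (n = 4) was inguinal fat, of mice housed at 23 °C and then kept at 4 °C for 1 week. Warm brown (n = 5) and warm beige (n = 3) came from the same depots after that week of cold and 4 further weeks at 30 °C. Warm white (n = 5) was inguinal fat too, from mice that spent their lives from birth at 30 °C. The label of each library calls it a biological replicate, and nothing says which mice gave more than 1 library. The 36 chromatin samples of the series were not analysed here.

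Hox genes lie in clusters on different chromosomes, and their paralogue number, from the first to the last, follows the order in which they are switched on from head to tail in the embryo. Hox proteins bind DNA together with the TALE cofactors Meis and Pbx. T-box, Iroquois, sine oculis and other homeobox factors pattern limbs, somites and body wall, and several of them, among them Tbx1, Tbx15, Shox2, En1 and Zic1, have long served as markers of one fat depot or one fat cell type. Adult fat cells keep part of this embryonic code, so a cell's depot can be read from it.

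Values are given as log2 CPM, the log2 of counts scaled to library size (CPM), as deposited. A row's lowest values repeat exactly among the libraries of a batch, and values at or below -5 log2 CPM were taken as the floor of the table. No fold is given against a group in which every library lay at that floor. Tests were made with limma across all 11603 rows, and a gene was called at a Benjamini-Hochberg adjusted p below 0.05. Sequencing depth is unknown. The floor rows split the brown libraries into 2 batches and the inguinal libraries into 2. The batches were joined across depots in the way that gave the smaller batch coefficients. Every group had libraries in both. The adipocyte markers were present in all 22 libraries (summed level 10300 to 20500 CPM). Genes listed as markers of other cells were read too. Summed CPM of the 14 fibroblast and preadipocyte markers was 75.9 to 159 in cold brown, 601 to 774 in warm brown, 1710 to 2170 in cold beige, 8350 to 12300 in warm beige and 12500 to 15000 in warm white libraries. The 14 endothelial markers summed to 68.6 to 239, 155 to 269, 208 to 458, 660 to 1020 and 65.9 to 103 CPM in the same order, and the 8 measured smooth muscle and pericyte markers to 141 to 419, 209 to 307, 265 to 490, 476 to 787 and 205 to 329 CPM. The 7 measured macrophage markers had group medians of 10.7, 21.7, 80.5, 159 and 102 CPM, and the 9 measured muscle markers 202, 29.8, 34.1, 200 and 12.7 CPM. The 4 measured glial markers had medians of 359, 271, 398, 132 and 96.4 CPM, and 1 of the 9 lymphocyte markers had a row, with group medians of 0.664, 1.78, 8.37, 8.51 and 6.63 CPM. The muscle and glial sums can rest on few genes. Between cold and warm brown, 0 muscle markers rose and 2 fell, with a median log2 change of 0. Of the glial markers 2 rose and 1 fell (median 0.57), although their sum fell. The muscle list holds Mb and the glial list S100b, and whether fat cells made these RNAs was not tested. No epithelial marker of 12 was matched to a row. None of these lists except the muscle list, with 1 marker in cold brown, had a marker that lay at the floor throughout a group. The 7 thermogenic markers had medians of 7740 CPM in cold brown, 2000 in warm brown, 5480 in cold beige, 273 in warm beige and 35.3 in warm white. The part of other cells in the differences below was not tested. In RNA pulled down from a whole depot, fewer cells of a type, less RNA per cell and less carry-over of untagged RNA cannot be told apart.

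Of the 44 genes, 5 were read in one depot and lay at the floor in every library of the other. Of the 9 rows of the whole table at the floor in all 10 brown libraries, 4 were these regulators: Hoxa10, Hoxc9, Hoxc10 and Emx2, the last a homeobox factor of forebrain and urogenital development. Of the 2 rows at the floor in all 12 inguinal libraries, 1 was Zic1, a zinc finger factor of the dorsal neural tube and somites. How rows were kept for the table is not known, and a gene low in every group may have no row. Such a row may be present only through the depot where it is read, so these counts do not measure how particular the regulators are. The RefSeq promoters of those with an entry (250 bases before to 50 after an annotated start, build GRCm38.p6) are shown because these genes mark the 2 depots without overlap. They lie at chr9:91365719-91366018 (minus strand) for Zic1, chr19:59458440-59458739 (plus strand) for Emx2, and chr6:52234890-52235189 and chr6:52240805-52241104 (both minus strand) for 2 starts of Hoxa10. Capitals mark CG dinucleotides, of which the sequences hold 31, 26, 21 and 12 in the order printed.
Zic1: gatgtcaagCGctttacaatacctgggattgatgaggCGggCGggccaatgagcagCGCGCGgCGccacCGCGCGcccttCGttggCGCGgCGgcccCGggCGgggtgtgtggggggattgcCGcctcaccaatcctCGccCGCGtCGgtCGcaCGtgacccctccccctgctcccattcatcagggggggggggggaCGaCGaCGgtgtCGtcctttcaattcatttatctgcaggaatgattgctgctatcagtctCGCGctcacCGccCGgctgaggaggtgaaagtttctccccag
Emx2: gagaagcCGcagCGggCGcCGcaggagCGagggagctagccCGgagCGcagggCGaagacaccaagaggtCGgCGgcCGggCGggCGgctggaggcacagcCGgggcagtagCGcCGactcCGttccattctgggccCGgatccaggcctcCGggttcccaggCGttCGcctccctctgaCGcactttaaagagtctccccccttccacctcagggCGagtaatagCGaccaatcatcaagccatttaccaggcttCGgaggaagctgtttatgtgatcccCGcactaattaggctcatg
Hoxa10 (first interval): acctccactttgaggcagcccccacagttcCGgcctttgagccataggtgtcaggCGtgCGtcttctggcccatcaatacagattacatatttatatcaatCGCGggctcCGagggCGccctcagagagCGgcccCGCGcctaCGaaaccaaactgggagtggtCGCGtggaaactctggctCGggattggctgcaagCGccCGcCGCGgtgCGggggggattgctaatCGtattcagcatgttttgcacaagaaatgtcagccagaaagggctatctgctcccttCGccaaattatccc
Hoxa10 (second interval): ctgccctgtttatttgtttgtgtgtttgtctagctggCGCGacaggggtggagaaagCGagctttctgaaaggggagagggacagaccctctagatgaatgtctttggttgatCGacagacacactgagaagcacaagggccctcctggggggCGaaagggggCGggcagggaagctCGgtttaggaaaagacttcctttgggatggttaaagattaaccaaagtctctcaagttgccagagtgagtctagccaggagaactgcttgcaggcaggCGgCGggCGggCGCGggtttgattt
As many CG dinucleotides as in Zic1 were held by 10.6% of the 32851 mouse promoters of that table, as many as in Emx2 by 16.9%, and as many as in the 2 Hoxa10 promoters by 24.8% and 39.6%. The 28 members with an entry had 31 promoters with a median of 16 CG dinucleotides, against 7 over all promoters. On either strand the homeobox core TAATTA stood in the promoters of Emx2 and Prrx1 (5.29% of all promoters), TGATNNAT, the joint Pbx and Hox motif, in that of Zic1 (8.85%), and the T-box motif AGGTGTGA in that of Hoxd9 (1.28%), and in no other of the 31 promoters searched. These are matches of letters only.

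Zic1 read 3.8, 4.3, 4.25, 4.16 and 4.21 log2 CPM in the 5 cold brown libraries and 3.79, 3.75, 3.95, 3.88 and 3.74 in the 5 warm brown ones. All 12 inguinal libraries lay between -5.83 and -5.73, the floor of its row. Rewarming moved Zic1 in brown cells by -0.32 ± 0.36 (SE) on the log2 scale, which was not called (adjusted p = 0.427). Hoxa10, a factor of the posterior trunk and the limb, was the mirror image. It read 4.64, 4.61, 4.51 and 4.22 log2 CPM in cold beige, 4.7, 4.68 and 4.46 in warm beige and 5.6, 5.13, 5.04, 4.93 and 5.16 in warm white, while the 10 brown libraries lay between -5.8 and -5.76. Hoxc10 read 4.47, 4.69, 4.8 and 4.82 in cold beige, 3.97, 4.29 and 4.35 in warm beige and 4.92, 4.57, 4.73, 4.67 and 4.35 in warm white. Its warm beige libraries all lay below the cold beige ones, a step of -0.49 ± 0.29 that was not called (adjusted p = 0.132). Hoxc9 read 3.27, 3.06, 3.49 and 3.08 in cold beige, 3.46, 3.85 and 3.73 in warm beige and 4.73, 4.49, 4.43, 4.12 and 4.19 in warm white. Emx2 read 0.87, 0.86, 0.43 and 0.71 in cold beige, 1.58, 1.4 and 1.11 in warm beige and 2.77, 2.74, 3.09, 2.54 and 2.73 in warm white. For both Hoxc9 and Emx2 every beige library lay below every white one. Emx2 was 4.16-fold lower in cold beige than in white (log2 difference -2.06 ± 0.43, adjusted p = 0.00018), and Hoxc9 2.25-fold lower (-1.17 ± 0.29, adjusted p = 0.00109). After rewarming the difference from white was still called for Emx2 (-1.41 ± 0.47, adjusted p = 0.0209), but was lost without warm beige library 2 or 3 or white library 3 (adjusted p = 0.0541 to 0.0728). It was not called for Hoxc9 (-0.71 ± 0.32, adjusted p = 0.0818).

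Most members differed between the depots, as did most rows of the whole table. The share of members called was 84.1% in the cold, 81.8% after rewarming and 86.4% in white. The last 2 shares were near those of all rows given below. Against cold brown, cold beige cells had 25 of the 44 members higher and 12 lower, where 34.7% of all rows were called higher and 27.2% lower (61.9% either way). After rewarming, 24 were higher and 12 lower in beige than in brown (35.3% of all rows called higher and 40.1% lower, 75.5% either way), and in white against warm brown 26 were higher and 12 lower (38.1% of all rows called higher and 40.9% lower, 79% either way). The median log2 difference of the members was 0.82, 0.81 and 0.55 in the 3 comparisons, against 0.05, -0.05 and -0.03 over all rows. Rescaling each library to the same distribution of values (quantile normalization) changed the split in the cold from 25 and 12 to 17 higher and 16 lower, and left it at 23 and 12 after rewarming and 27 and 13 in white. In all, 20 members were higher in all 3 inguinal groups than in the matched brown group (21.1% of all rows were), and 6 were lower in all 3 (19.2% of all rows). The 2 comparisons with warm brown share its libraries. Of the 37, 36 and 38 members called, 26, 26 and 31 were called within batch 1 alone and 30, 32 and 33 within batch 2 alone, none of them in the opposite direction. In 12 members all 12 inguinal libraries lay above all 10 brown ones (7.83% of all rows): Emx2, Hoxa9, Hoxa10, Hoxb6, Hoxb7, Hoxc8, Hoxc9, Hoxc10, Prrx1, Shox2, Tbx3 and Tbx15. In 4 members all inguinal libraries lay below all brown ones (6.33% of all rows): Hoxa5, Pbx3, Six4 and Zic1.

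**Figure D1:**
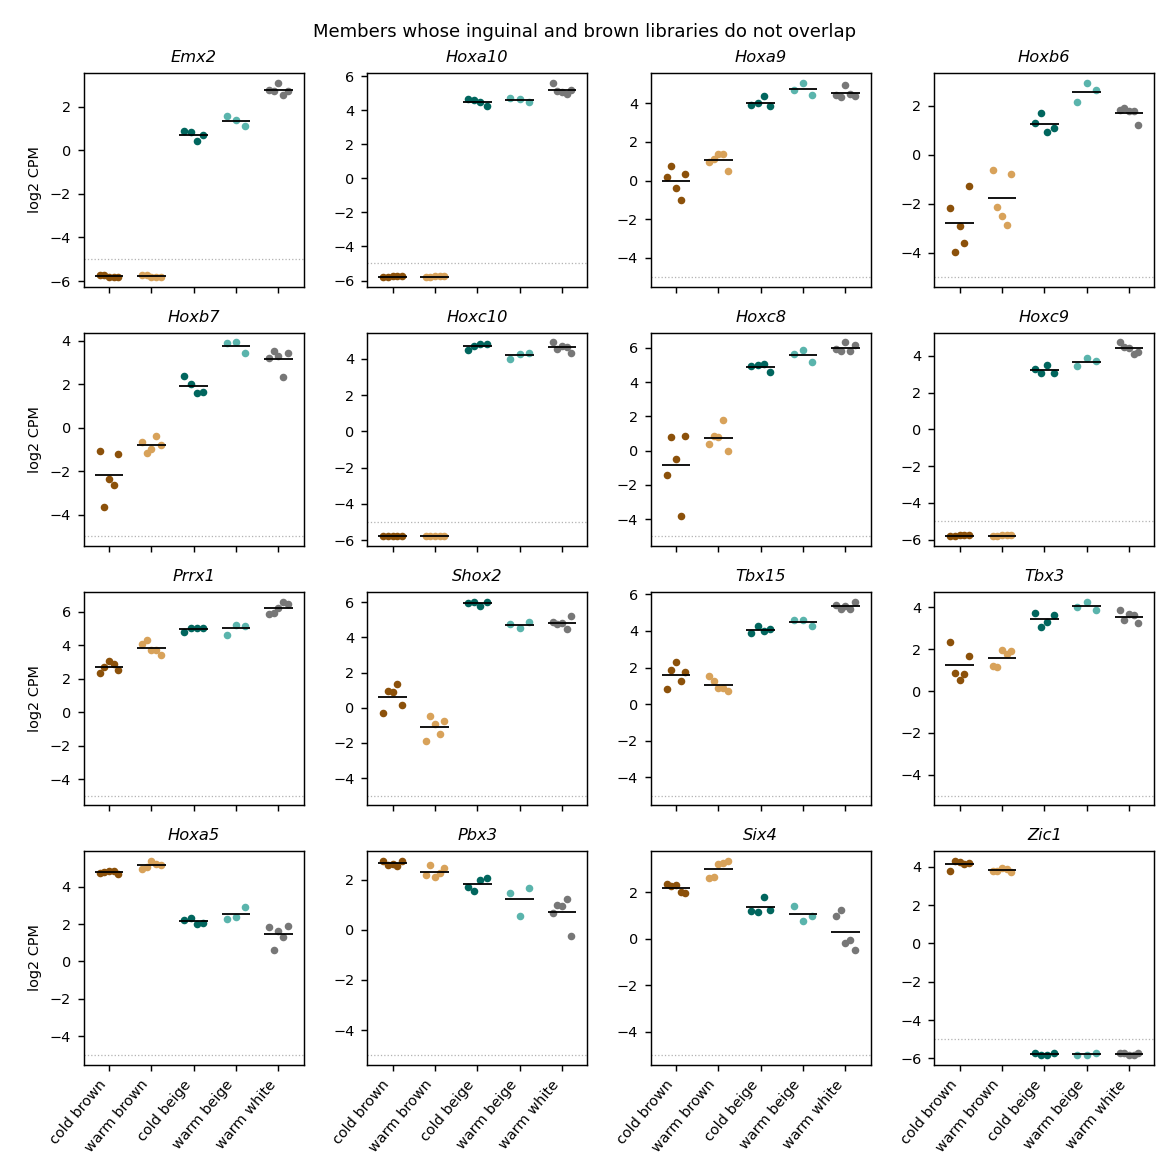
Log2 CPM of the 16 members whose inguinal and brown libraries do not overlap. Each point is 1 library, each bar a group mean and the dotted line the floor at -5; the first 12 panels are higher in the inguinal groups (cold beige, warm beige, warm white) and the last 4 higher in the brown groups.

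Shox2, a limb and heart pacemaker factor, had the widest gap among members read in both depots in all 3 comparisons apart from Tbx1 in the 2 beige ones and Hoxc8 in the cold. Shox2 read -0.27, 0.98, 0.9, 1.33 and 0.14 log2 CPM in cold brown and -1.87, -0.44, -0.91, -1.5 and -0.73 in warm brown. It read 5.97, 5.98, 5.8 and 6.03 in cold beige, 4.73, 4.51 and 4.89 in warm beige and 4.9, 4.76, 4.82, 4.5 and 5.23 in white. Cold beige was the highest group, and the warm groups of both depots lay below their cold group without overlap. The depot difference was 40.2-fold in the cold (log2 5.33 ± 0.28, adjusted p = 1.01e-12), 55.7-fold after rewarming (5.8 ± 0.31, adjusted p = 1.69e-13) and 61.1-fold between white and warm brown (5.93 ± 0.27, adjusted p = 2.97e-15).

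Hoxa5, which patterns the neck and upper thorax, ran the other way. It read 4.72, 4.78, 4.85, 4.81 and 4.65 log2 CPM in cold brown and 4.93, 5.05, 5.37, 5.2 and 5.14 in warm brown. In inguinal cells it read 2.22, 2.32, 2.02 and 2.08 in cold beige, 2.27, 2.38 and 2.89 in warm beige and 1.83, 0.64, 1.62, 1.32 and 1.87 in white. Brown libraries were all above inguinal ones, and white libraries all below beige ones. Hoxa5 was 6.07-fold lower in cold beige than in cold brown (log2 -2.6 ± 0.19, adjusted p = 1.45e-10), 6.17-fold lower after rewarming (-2.62 ± 0.2) and 12.8-fold lower in white (-3.68 ± 0.18).

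Among the 20 Hox genes the depot difference tended to rise with the paralogue number, with mixed signs among the lowest numbers. Of all rows, 34.7%, 35.3% and 38.1% were called higher in the 3 comparisons, and 27.2%, 40.1% and 40.9% lower. Of the 9 members numbered 2 to 5, 3 were higher and 4 lower in cold beige than in cold brown, 2 and 5 after rewarming, and 2 and 5 in white against warm brown. All 4 members numbered 6 or 7 (Hoxb6, Hoxc6, Hoxa7 and Hoxb7) were higher in the inguinal cells in each of the 3 comparisons. Of the 7 numbered 8 to 10, 6 were higher and 1, Hoxd8, lower in both beige comparisons, and all 7 were higher in white. The cold difference of Hoxd9, 1 of those 6, was -1.65 with quantile normalization (adjusted p = 0.0283). Across the 20 genes Spearman's rho between paralogue number and the difference of group means was 0.63 in the cold, 0.66 after rewarming and 0.78 for white. This is a description over genes of 4 clusters. Hoxa10, Hoxc9 and Hoxc10 enter the counts and rho, although their rows may be present only through the inguinal depot. Neighbours in a cluster can share reads and are not independent.

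**Figure D2:**
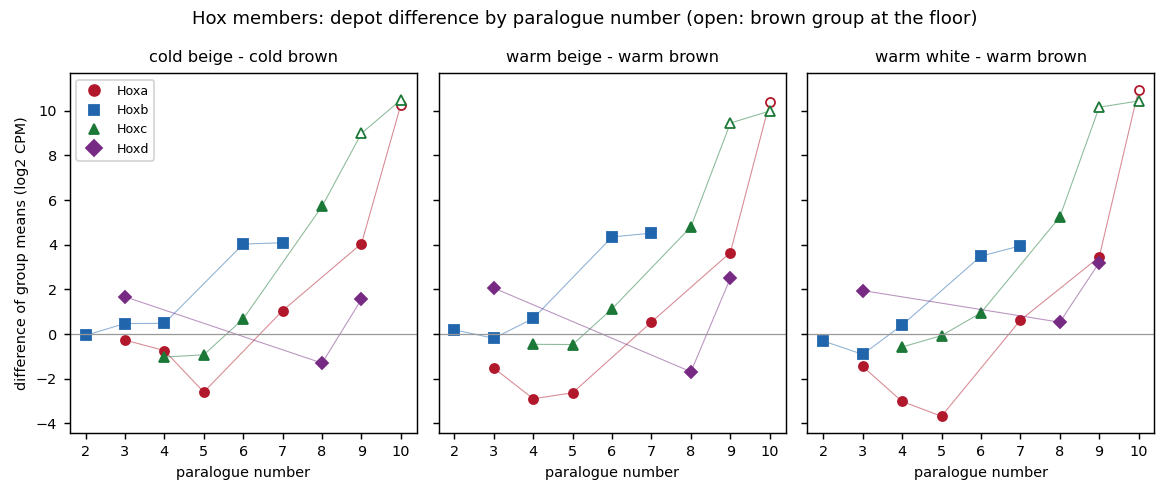
Difference of group means (log2 CPM, inguinal minus brown) for the 20 Hox members against their paralogue number, 1 panel for each inguinal group. Open symbols mark Hoxa10, Hoxc9 and Hoxc10, whose brown libraries all lay at the floor, so that their height is no fold; genes numbered 6 and 7 lie above 0 in every panel, as do those numbered 8 to 10 apart from Hoxd8 in the 2 beige panels.

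In the Hoxc cluster on chromosome 15 the step ran from one neighbour to the next. Hoxc4 was lower in beige than in brown in the cold (log2 -1.03 ± 0.18, adjusted p = 4.66e-05), as was Hoxc5 (-0.94 ± 0.11, adjusted p = 1.84e-07), Hoxc6 was higher (0.68 ± 0.12, adjusted p = 6.54e-05) and Hoxc8 was 52.6-fold higher (5.72 ± 0.59, adjusted p = 4.24e-08). Hoxc8 read -1.42, 0.82, -0.51, -3.8 and 0.83 log2 CPM in cold brown and 0.4, 0.87, 0.79, 1.78 and 0 in warm brown. It read 4.93, 4.98, 5.08 and 4.61 in cold beige, 5.63, 5.88 and 5.19 in warm beige and 5.93, 5.81, 6.32, 5.83 and 6.18 in white. No inguinal library overlapped a brown one, and cold brown library 4 stood lowest. After rewarming Hoxc4 was lower in beige (log2 -0.45 ± 0.2, adjusted p = 0.0439), a call lost without any 1 of 6 libraries (adjusted p up to 0.225) and of the opposite sign, 0.18, in batch 1.

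In the Hoxa cluster on chromosome 6, Hoxa3 differed little in the cold (-0.26 ± 0.32, adjusted p = 0.493) and was lower in warm beige (-1.51 ± 0.35, adjusted p = 0.000512) and white (-1.44 ± 0.3, adjusted p = 0.00017) than in warm brown. Hoxa4 was lower in all 3 inguinal groups (-0.74 ± 0.29, -2.9 ± 0.32 and -3.02 ± 0.28), and its call in the cold (adjusted p = 0.033) was lost without any 1 of 6 libraries (adjusted p = 0.0552 to 0.0789). Hoxa7 was higher by 1.05 ± 0.19 in the cold (adjusted p = 4.75e-05), by 0.54 ± 0.2 after rewarming (adjusted p = 0.0197, or 0.152 without warm beige library 3) and by 0.63 ± 0.18 in white (adjusted p = 0.00249). Hoxa9 was 16.6-fold higher in cold beige (log2 4.06 ± 0.27, adjusted p = 3.41e-11), 12.6-fold higher in warm beige and 10.9-fold higher in white than in the matched brown group. The annotated span of Hoxa3 covers those of Hoxa4 and Hoxa5, that of Hoxb3 covers Hoxb4, and that of Hoxd3 covers Hoxd4. Whether the counting used strand is not given in the sources used here, so reads in shared stretches cannot be told apart. In all, 11 of the 44 members overlap another coding gene in the RefSeq annotation.

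In the Hoxb cluster on chromosome 11, Hoxb7 read -1.08, -3.65, -2.35, -2.63 and -1.2 log2 CPM in cold brown and -0.64, -1.17, -0.97, -0.4 and -0.79 in warm brown. It read 2.39, 2.01, 1.58 and 1.65 in cold beige, 3.87, 3.92 and 3.41 in warm beige and 3.21, 3.52, 3.3, 2.33 and 3.43 in white. All inguinal libraries were above all brown ones, and the warm groups lay above the cold group in inguinal cells, apart from white library 4, which lay just below cold beige library 1. The difference from brown was 17-fold in the cold (log2 4.09 ± 0.4, adjusted p = 1.56e-08) and 23.1-fold after rewarming (4.53 ± 0.43, adjusted p = 3.41e-09). Its neighbour Hoxb6 was 16.4-fold and 20.3-fold higher. In cold and warm brown Hoxb7 averaged 0.269 and 0.587 CPM and Hoxb6 0.183 and 0.356 CPM, so low levels shape these folds. Hoxb2 was not called in any of the 3 comparisons (adjusted p = 0.141 to 0.818), and Hoxb4 was higher in each by 0.41 to 0.71 on the log2 scale. Hoxb3 was higher by 0.47 ± 0.19 in cold beige (adjusted p = 0.0401), a call lost without any 1 of 6 libraries (adjusted p up to 0.0896), and lower in white than in warm brown (-0.92 ± 0.18, adjusted p = 9.44e-05).

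The Hoxd cluster on chromosome 2 was the exception to the order. Hoxd3 was 3.18-fold higher in cold beige (log2 1.67 ± 0.34, adjusted p = 0.000247) and 4.17-fold higher in warm beige (2.06 ± 0.38, adjusted p = 3.63e-05) than in brown. Hoxd8 was 2.45-fold lower in cold beige (-1.29 ± 0.19, adjusted p = 4.03e-06), 3.22-fold lower in warm beige (-1.69 ± 0.2, adjusted p = 1.39e-07) and 1.45-fold higher in white (0.53 ± 0.18, adjusted p = 0.00904). Hoxd9 was higher in all 3 (1.56 ± 0.48, 2.5 ± 0.52 and 3.2 ± 0.45). With quantile normalization the cold differences of Hoxd3 and Hoxd9 changed sign. That of Hoxd3 was -0.11 and not called (adjusted p = 0.814), and that of Hoxd9 was -1.65 and called lower (adjusted p = 0.0283).

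The TALE cofactors were read in both depots. Pbx3 was lower in all 3 comparisons (log2 -0.82 ± 0.25, -1.09 ± 0.27 and -1.6 ± 0.24), with no overlap between depots: its means were 2.64 ± 0.09 (SD, n = 5) in cold brown, 2.3 ± 0.2 (n = 5) in warm brown, 1.82 ± 0.25 (n = 4) in cold beige, 1.22 ± 0.59 (n = 3) in warm beige and 0.7 ± 0.57 (n = 5) in white. Pbx2 differed from brown by -0.28, 0.03 and 0.27, and Meis1 by -0.12, 0.04 and 0.57, with the last value called for both and, for Pbx2, the first. Meis2 was lower in the cold (-0.31 ± 0.11, adjusted p = 0.0219, or 0.132 without cold beige library 1). Meis3 was 4.59-fold higher in warm beige (2.2 ± 0.47, adjusted p = 0.000223) and 9.57-fold higher in white (3.26 ± 0.41, adjusted p = 1.69e-07) than in warm brown, and was not called in the cold (0.32 ± 0.43, adjusted p = 0.532).

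All 5 T-box genes were higher in beige than in brown, cold and warm, where 34.7% and 35.3% of all rows were called higher. Of the 14 endothelial markers, 11 were higher and 0 lower in each of these comparisons, and their part was not tested. Tbx15, a factor of skeletal patterning used as a marker of inguinal and white fat, read 0.83, 1.87, 2.33, 1.24 and 1.74 log2 CPM in cold brown and 1.56, 1.25, 0.87, 0.89 and 0.71 in warm brown. It read 3.87, 4.26, 3.98 and 4.11 in cold beige, 4.58, 4.61 and 4.26 in warm beige and 5.43, 5.18, 5.38, 5.17 and 5.6 in white. The order brown, beige, white held with no overlap between any brown and beige library or any beige and white one. Tbx15 was 5.48-fold higher in cold beige (2.45 ± 0.22, adjusted p = 5.64e-09), 10.8-fold in warm beige (3.43 ± 0.24, adjusted p = 2.33e-11) and 19.6-fold in white (4.3 ± 0.21, adjusted p = 1.41e-14) than in the matched brown group. Tbx3 was 4.49-fold, 5.45-fold and 3.88-fold higher in the same comparisons. Tbx2 was 2.32-fold higher in cold beige (1.21 ± 0.34, adjusted p = 0.00419), a difference that was -0.01 with quantile normalization, and 4.21-fold higher in warm beige (2.07 ± 0.37, adjusted p = 3.31e-05).

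Tbx1, a pharyngeal and muscle factor described as a beige marker, set beige apart from both other cell types. It read 3.35, 3.1, 3.07 and 3.33 log2 CPM in cold beige and 3.15, 2.33 and 2.75 in warm beige. White libraries read 0.31, -1.75, -3.03, -3.09 and -2.15, and brown libraries -5.74, -5.74, -2.75, -5.82 and -3.86 in the cold and -5.74, -5.74, -4.11, -5.82 and -5.82 after rewarming, of which 3 and 4 were at the floor. Every beige library lay above every white library, and every white library above the warm brown ones. Against white, Tbx1 was 35.6-fold higher in cold beige (log2 5.15 ± 0.75, adjusted p = 1.78e-06) and 25.7-fold higher in warm beige (4.69 ± 0.82, adjusted p = 9.84e-05). With 1 CPM added to every value, which damps low levels, the differences were 2.93 and 2.52. The warm difference was 3.95 within batch 1, where it was not called (adjusted p = 0.0707). Rewarming changed it in beige by -0.47 ± 0.86, which was not called (adjusted p = 0.631). Against brown the log2 difference was 7.99 ± 0.75 in the cold and 8.19 ± 0.82 after rewarming, or 3.29 and 2.91 with 1 CPM added, since most brown libraries lay at or near the floor.

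Tbx18, Tbx2 and Meox2 were also higher in warm beige than in white. The comparison of warm beige with white called 6 members higher and 10 lower, where 17% of all rows were called higher and 22.4% lower (39.4% either way). Tbx18, a factor of somites and of the wall of vessels and ureter, read 3.31, 2.92, 2.71 and 3.2 log2 CPM in cold beige, 3.87, 4.16 and 3.65 in warm beige and 0.06, -0.26, 0.79, 0.63 and 0.04 in white. It read 0.77, 0.39, -0.29, -0.26 and 0.57 in cold brown and 0.61, 1.18, 0.87, 0.93 and 0.82 in warm brown, so that every beige library lay above every other library. Tbx18 was 12.5-fold higher in warm beige than in white (3.64 ± 0.28, adjusted p = 1.5e-09), Tbx2 7.38-fold (2.88 ± 0.37, adjusted p = 2.93e-06) and Meox2, a muscle and vascular factor, 7.75-fold (2.95 ± 0.57, adjusted p = 0.000261). The other 2 of the 6 were Hoxa5 (1.06 ± 0.2, adjusted p = 0.000283) and Hoxb3 (0.73 ± 0.21, adjusted p = 0.00891, or 0.0951 without warm beige library 3). All 14 endothelial markers, and 6 of the 8 smooth muscle and pericyte markers, were also higher in warm beige than in white. Meox2 was highest in cold brown in libraries 1 and 5 (1.24 and 1.66, against 0.27, -0.46 and -0.69 in the others), which also held the most endothelial RNA. Libraries 1 and 5 were also the highest of cold brown for Tbx2, Tbx3, Tbx18, Hoxb2, Hoxb3, Hoxb6, Hoxb7 and Pbx3. The part of endothelial, smooth muscle and pericyte cells in the values of these genes, of Meox2 and of Tbx1 was not tested.

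Among the 10 members lower in warm beige than in white were En1, Emx2, Hoxc5, Hoxd8, Lhx8, Pbx2, Prrx1 and Tbx15. Hoxd8 stood at 3.28 ± 0.21 log2 CPM (SD, n = 3) in warm beige and 5.5 ± 0.31 (n = 5) in white, 4.66-fold lower (-2.22 ± 0.2, adjusted p = 2.33e-08). En1, which sets the ventral side of the limb, read 2.59 ± 0.12 in white (n = 5), 0.92 ± 0.37 in warm beige (n = 3) and -0.32 ± 0.8 in cold beige (n = 4). As deposited, the last was close to the brown means of -0.64 ± 0.44 and 0.01 ± 0.43 (n = 5 each). After quantile normalization En1 was lower in cold beige than in cold brown (-2.32, adjusted p = 0.000108), against 0.32 as deposited. Its difference between warm beige and white was -1.67 ± 0.37 (adjusted p = 0.000957). Prrx1, a limb and connective tissue factor, was 2.31-fold lower (-1.21 ± 0.2, adjusted p = 5.94e-05) and Tbx15 1.83-fold lower (-0.87 ± 0.24, adjusted p = 0.00676). In these 4 genes no warm beige library reached a white one. Hoxc5 (-0.4), Lhx8 (-0.59) and Pbx2 (-0.24) overlapped, and the call of Lhx8 was lost without warm beige library 2 or 3 (adjusted p up to 0.0531) and that of Pbx2 without any 1 of 4 libraries (adjusted p up to 0.122). Cold beige against white called 12 members higher and 22 lower (38% of all rows called higher and 37.2% lower, 75.2% either way). The lower ones were led by Hoxd9 (12.8-fold), Hoxd8 (10.1-fold), En1 (7.53-fold), Lhx8 (6-fold) and Emx2, and the higher ones by Pitx3 (log2 7.2 ± 0.8, or 2.32 with 1 CPM added, since 4 of 5 white libraries lay at the floor), Tbx1, Tbx18 and Hoxa4 (2.75 ± 0.29, adjusted p = 1.43e-08).

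**Figure D3:**
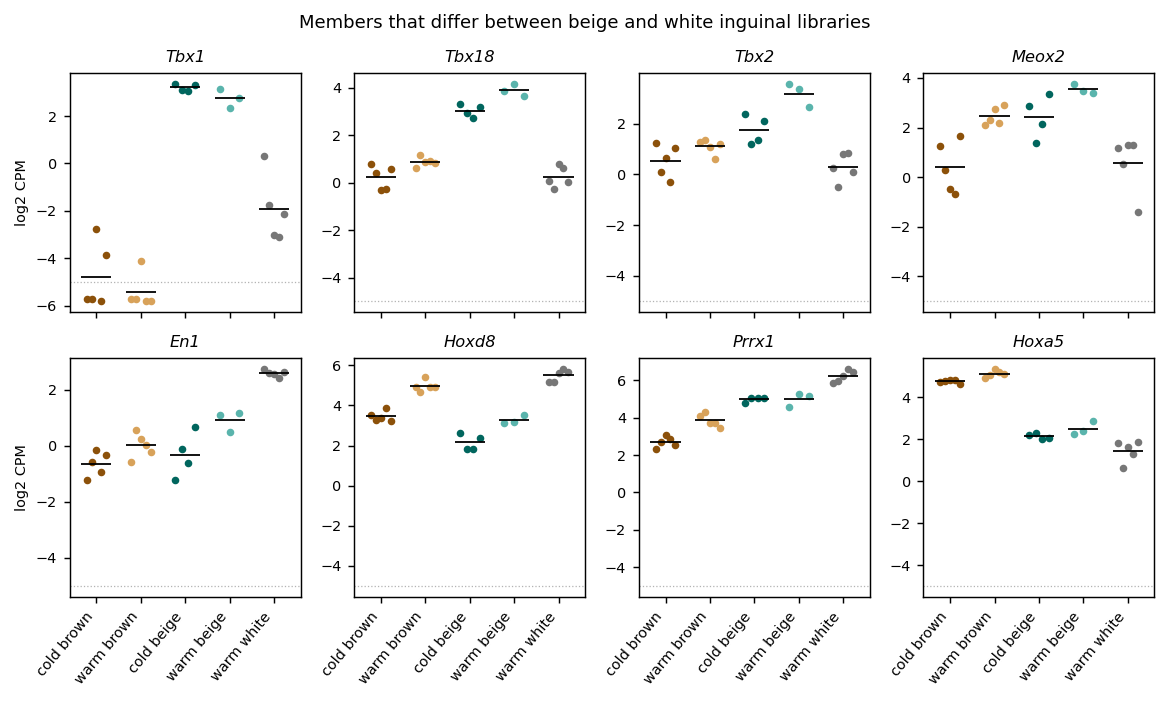
Log2 CPM by library for 8 members that differ between the beige and white inguinal groups, with group means as bars and the floor at -5 dotted. Tbx1, Tbx18, Tbx2 and Meox2 stand higher in warm beige than in white, En1, Hoxd8 and Prrx1 lower, and Hoxa5 is higher in beige than in white and highest in brown.

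Six4, which acts in muscle and placode precursors, was lower in all 3 inguinal groups (log2 -0.83 ± 0.29, -1.97 ± 0.32 and -2.71 ± 0.28), with no overlap between depots. Irx2 was higher in all 3, by 2.52 ± 0.53, 2.57 ± 0.58 and 2.58 ± 0.5. The cold call of Irx2 was lost with quantile normalization (adjusted p = 0.563), and the warm beige and white calls within batch 1 (adjusted p = 0.341 and 0.219). Irx3, a neighbour and reported target of Fto enhancers, was lower in cold beige (-0.83 ± 0.29, adjusted p = 0.0161, or 0.0934 without cold beige library 3) and was not called in the warm comparisons. Six5 was higher in cold beige (0.41 ± 0.11) and white (0.32 ± 0.1) and missed the threshold in warm beige (0.26 ± 0.12, adjusted p = 0.0508). Lhx8, a forebrain and tooth factor long listed among brown fat markers, was lower in cold beige (-1.54 ± 0.17, adjusted p = 1.3e-07) and in warm beige (-0.88 ± 0.19, adjusted p = 0.00023), and did not pass the test in white (-0.29 ± 0.16, adjusted p = 0.108). Prrx1 was 4.86-fold, 2.22-fold and 5.13-fold higher in cold beige, warm beige and white than in the matched brown group. All 14 fibroblast and preadipocyte markers were higher in both beige groups than in brown, and 12 of 14 in white, and their part in these differences was not tested.

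On rewarming more members rose than fell in both depots. In beige cells 18 members rose and 4 fell (36% of all rows called higher and 36.9% lower, 72.9% either way), and in brown cells 19 rose and 6 fell (41.2% of all rows called higher and 30.1% lower, 71.3% either way). The members' median log2 change was 0.56 in beige and 0.39 in brown, and that of all rows 0.03 and 0.13. Scaling to a common total raised the medians of all rows to 0.18 and 0.28, and gave 20 up and 3 down in beige and 22 up and 5 down in brown. With quantile normalization the brown split became 9 up and 11 down, and the beige split 19 and 5. In all, 13 members rose in both depots (26.8% of all rows), among them Hoxa9, Hoxb4, Hoxb7, Hoxc6, Hoxd8, Hoxd9, Irx2, Lhx8, Six5 and Tbx18. Pitx3 and Shox2 fell in both (23.4% of all rows), and no member was called in opposite directions (5.64% of all rows). The rise of Tbx18 in brown cells, 0.65 ± 0.24, was -0.19 with quantile normalization, and its rise in beige (0.86 ± 0.29, adjusted p = 0.0118) was lost without warm beige library 2 (adjusted p = 0.0599). The rise of Irx2 in beige (1.59 ± 0.61, adjusted p = 0.023) was lost without cold beige library 2 or warm beige library 2 (adjusted p up to 0.101). Of the 22 members called in beige and the 25 in brown, 10 and 13 were also called within batch 1 alone and 18 and 22 within batch 2 alone, none in the opposite direction.

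Of the genes that rose, Hoxd9 moved most in beige, from -1.26 ± 1.23 log2 CPM (SD, n = 4) to 1.72 ± 0.25 (n = 3), a 7.88-fold change (log2 2.98 ± 0.55, adjusted p = 4.62e-05), and rose 4.11-fold in brown (2.04 ± 0.45, adjusted p = 0.000385). Hoxd9 averaged 0.154 CPM in cold brown, 0.618 in warm brown and 0.534 in cold beige. Such low levels shape its folds, also that against white. Lhx8 rose 3.99-fold in beige (2 ± 0.2, adjusted p = 5.95e-09) and 2.52-fold in brown (1.33 ± 0.16, adjusted p = 1.88e-07). Six5 rose 2.7-fold and 2.98-fold, and Hoxd8 2.17-fold and 2.85-fold. Hoxa9 in beige (0.69 ± 0.3, adjusted p = 0.0463) and Hoxb6 in beige (1.32 ± 0.58, adjusted p = 0.0442) passed the test narrowly, and single libraries left out ended those calls (11 libraries for Hoxa9 and 8 for Hoxb6, adjusted p up to 0.183). Meox2 rose 4.12-fold in brown (2.04 ± 0.49, adjusted p = 0.000787) and stood at 1.11 ± 0.59 in beige, which was not called (adjusted p = 0.0971). Hoxa10, Hoxc9, Hoxc10 and Emx2 were not called in beige, and Zic1 was not called in brown. In the other depot every library of these genes lay at the floor, so no change could be read there. Shox2 fell 2.35-fold in beige (-1.23 ± 0.32, adjusted p = 0.00159) and 3.26-fold in brown (-1.71 ± 0.27, adjusted p = 5.6e-06), and Hoxa7 fell in beige (-0.62 ± 0.21, adjusted p = 0.0124, or 0.0978 without warm beige library 2).

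**Figure D4:**
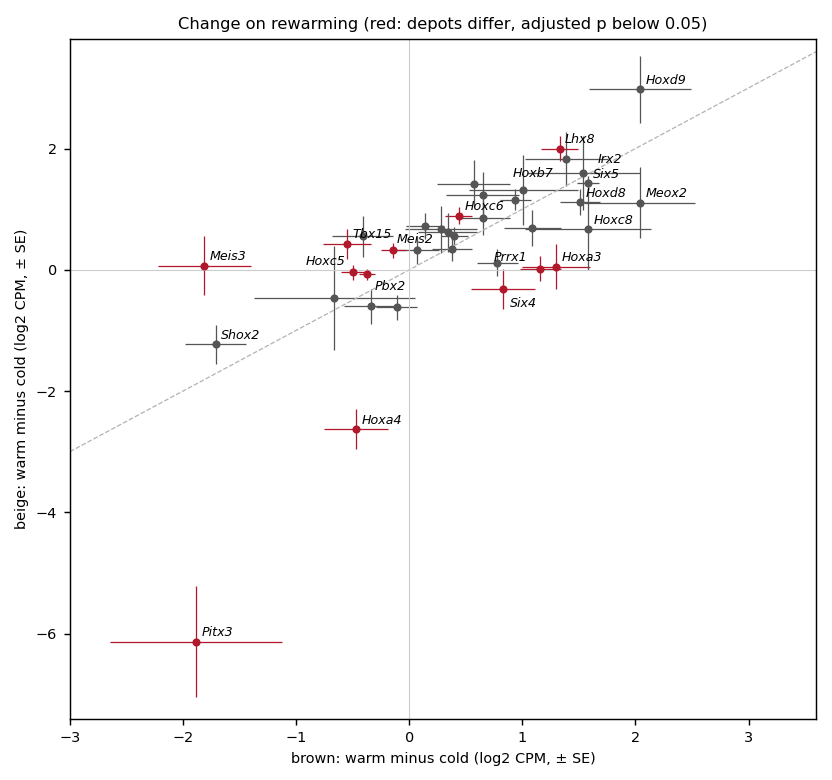
Log2 change on rewarming in brown cells (x axis) and beige cells (y axis) with standard errors, for 37 of the members that were above the floor in some library of each of the 4 groups. Red marks members whose change differed between depots at an adjusted p below 0.05, and the dashed line marks equal change; Pitx3 and Hoxa4 lie far below it and Meis3 above it.

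The change on rewarming differed between the depots in 13 members, 7 of them moving more upward in beige and 6 more downward (14.8% of all rows were called upward and 32.4% downward, 47.2% either way). With quantile normalization the split was 17 and 3, with median-of-ratios scaling 9 and 4, and with a common total 4 and 6. The median difference over all rows was -0.17 as deposited and 0.03 with quantile normalization. Within batch 1 alone, where warm beige has 1 library, 2 of the 13 were called, and within batch 2 alone 7. Prrx1 was called under all 35 alternatives, with a difference of -1.13 ± 0.27 (adjusted p = 0.0017): it rose 2.23-fold in brown (1.16 ± 0.18, adjusted p = 3.9e-06) and stood at 0.02 ± 0.21 in beige. Tbx15 differed by 0.97 ± 0.33 (adjusted p = 0.0185) and Hoxc5 by 0.47 ± 0.16 (adjusted p = 0.0193). Tbx15 fell in brown (-0.55 ± 0.21, adjusted p = 0.0242), a change that was 0.05 in batch 1 and lost its call without any 1 of 5 libraries. The differences of Hoxc6, Lhx8, Six4, Meis2, Hoxa3 and Pbx2 lost their call without any 1 of 15, 10, 8, 6, 6 and 4 libraries.

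Hoxa4, a member of the anterior Hoxa group, fell in beige cells on rewarming. It read 3.82, 3.69, 3.42, 3.47 and 3.69 log2 CPM in cold brown, 2.98, 3.27, 3.39, 3.05 and 3.05 in warm brown and 3.11, 2.91, 2.82 and 2.68 in cold beige. Warm beige libraries read 0.82, -0.43 and 0.36, and white libraries -0.9, -0.25, 0.11, 0.52 and 1.18. Warm beige and white overlapped, and both lay below every library of the other 3 groups. The fall was 6.19-fold in beige (log2 -2.63 ± 0.33, adjusted p = 2.85e-07) against -0.47 ± 0.28 in brown (adjusted p = 0.131), and the difference was -2.16 ± 0.43 (adjusted p = 0.000274). Warm beige differed from white by 0.12 ± 0.32 (adjusted p = 0.798). The beige change of its neighbour Hoxa5 was 0.35 ± 0.21 (adjusted p = 0.141) and that of Hoxa3 0.05 ± 0.37 (adjusted p = 0.907), neither called. The Hoxa3 value rested on warm beige library 3: it was -0.58 without that library, and -0.73 and called within batch 2 (adjusted p = 0.0333).

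Meis3, a Hox cofactor of the TALE class, fell in brown cells. It read 0.92, 1.04, 0.59, 0.73 and 0.73 log2 CPM in cold brown and -3.07, -0.34, -0.9, -0.47 and -0.27 in warm brown, and 1.11, 0.74, 0.85 and 1.8 in cold beige and 1.33, 0.83 and 1.41 in warm beige. White libraries read 2.51, 1.45, 2.16, 2.18 and 2.94. Every warm brown library lay below every other library, warm brown library 1 furthest. Meis3 fell 3.51-fold in brown (-1.81 ± 0.41, adjusted p = 0.000421), its beige change was 0.07 ± 0.49 (adjusted p = 0.911), and the difference was 1.88 ± 0.64 (adjusted p = 0.0192).

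Pitx3, a lens and dopamine neuron factor, had the largest fall in beige cells. It read 1.65, 1.45, 0.71, 0.62 and 1 log2 CPM in cold brown, -0.78, 0.05, -1.55, -0.92 and -0.75 in warm brown and 2.87, 2.08, 1.58 and 1.64 in cold beige. Warm beige libraries read -0.7, -6.13 and -5.44 and white libraries -5.44, -5.44, -3.33, -6.13 and -5.44, so that 2 of 3 and 4 of 5 were at the floor. The log2 change was -6.13 ± 0.91 in beige (adjusted p = 3.04e-06) and -1.88 ± 0.76 in brown (adjusted p = 0.0311), with a difference of -4.26 ± 1.19 (adjusted p = 0.00522). The floor shapes these sizes: with 1 CPM added they were -2.12, -0.98 and -1.15. The brown call was lost without cold brown library 1 or 2 or warm brown library 3 or 4 (adjusted p = 0.0529 to 0.0715). The annotated span of Pitx3 (chr19:46135281-46148325) shares 414 bases with that of Elovl3 (chr19:46131897-46135694), a fatty acid elongase of thermogenic fat. Elovl3 read 9.35 ± 0.18 log2 CPM (SD, n = 5) in cold brown, -0.37 ± 0.21 (n = 5) in warm brown, 8.83 ± 0.18 (n = 4) in cold beige, -4.73 ± 1.73 (n = 3) in warm beige and -5.25 ± 1.26 (n = 5) in white. Over the 22 libraries, which fall into these 5 groups, both genes were high in cold groups and low in warm ones, and the part of Elovl3 reads in the values of Pitx3 was not tested.

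**Figure D5:**
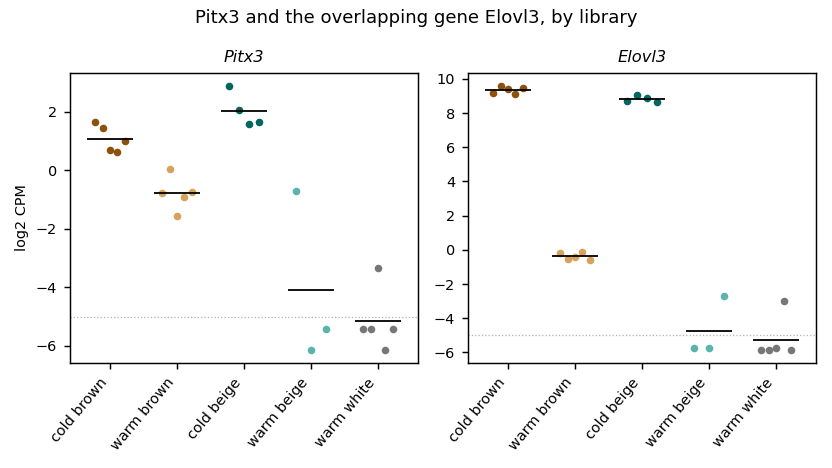
Log2 CPM by library for Pitx3 and for Elovl3, whose annotated span overlaps its own, with group means as bars and the floor at -5 dotted. Both stand high in the 2 cold groups, lower in warm brown and near or at the floor in most warm beige and white libraries.

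Genes that work with these regulators were described from lists outside the members, and their counts are given beside the share of all rows called: 61.9% between the cold depots, 72.9% on rewarming in beige and 71.3% in brown. No list was tested against other genes. Of 51 listed Meis and Pbx partners and other homeobox genes, 19 had a row. In beige cells 9 of them rose and 2 fell on rewarming, and in brown cells 12 rose and 4 fell, while 7 were higher and 8 lower in cold beige than in cold brown. One of them, the homeobox gene Gsc, was also at the floor in every brown library and read -0.23 log2 CPM on average in cold beige and 1.73 in warm beige. Of the 8 measured partners of Six4 and Six5, 4 rose and 1 fell in beige and 6 rose and 1 fell in brown. Of 46 measured Polycomb and Trithorax genes, which hold Hox clusters silent or active, 15 were higher and 6 lower in cold beige than in cold brown, with the methyltransferase genes Kmt2d (1.51 ± 0.1, adjusted p = 4.2e-11) and Kmt2a (1.37 ± 0.11, adjusted p = 9.3e-10) at the head, and 25 rose and 11 fell in beige on rewarming against 25 and 8 in brown. Of 13 measured genes of retinoic acid signalling, an inducer of Hox genes, 8 were higher and 3 lower in cold beige than in cold brown. Of 16 other positional and mesodermal regulators, 8 were higher and 2 lower, led in either direction by Gata6 (5.11 ± 0.41, adjusted p = 7.98e-10) and Foxp2 (-6.44 ± 0.66, adjusted p = 3.58e-08). Foxp2 averaged -4.62 log2 CPM in cold beige, near the floor, and 1.82 in cold brown, so the floor shapes the size of its difference.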

How the data were processed

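Ribosome-bound RNA was measured in 22 libraries of 5 groups. The deposited values are log2 CPM per gene, which the authors normalized before deposit. The submitters' processing notes name HISAT2, Picard, featureCounts, edgeR and mm10, with no versions or roles. The strand and annotation used for counting are not given in the sources used here. The values look like ones from which a batch effect was removed before deposit: with group and batch fitted to every row, no batch coefficient passed 0.005 on the log2 scale. That coefficient also served to join the batches of the 2 depots, and it reached 1.9 in the other joining. The degrees of freedom spent on that removal are not counted in the p-values, which are somewhat too small. Depth is unknown, so no counting error is given. All groups entered 1 fit with limma 3.58.1 in R 4.3.3 (trend on mean level, 5 group means, 17 residual degrees of freedom, two-sided, Benjamini-Hochberg adjustment over 11603 rows, threshold 0.05). The fit was checked on simulated data. P-values measure the spread between these libraries. Libraries were not treated as pairs in the fit, since the labels name no shared mouse. Brown and beige libraries of the same temperature and library number did correlate best with each other, as described at the end. The members and lists were chosen with earlier results of these data known. Results of some members are not reported here. Named genes are the members, with up to 15 given library by library, and, from each other list, at most the 3 largest called differences per comparison. The members given library by library are not strictly those with the largest depot differences, since Hoxa9 and Hoxb6 are not among them. Alternatives were other scalings, a filter of 5 CPM in 3 libraries, 1 CPM added, single batches, a batch term, a replicate block, only the groups compared, a variance prior without trend, each library left out, and cold brown libraries 1 and 5 left out together. The 36 chromatin samples were not analysed here. Gene spans and promoters are those of RefSeq for GRCm38.p6.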

Additional observations from a re-analysis of the deposited data

Results flagged for a closer look

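Among 166 groups of 4 or 5 libraries, 15 held a library set apart from the rest by a gap larger than Dixon's critical value, and chance alone gives about 1 in 20. In warm white, Hoxa3 read 0.69 log2 CPM in library 2 (1.72 to 2.13 in the others), Hoxa9 4.94 in library 3 (4.34 to 4.48), Hoxb6 1.2 in library 5 (1.79 to 1.9), Hoxb7 2.33 in library 4 (3.21 to 3.52), Lhx8 3.12 in library 4 (3.62 to 3.81), Meox2 -1.42 in library 5 (0.55 to 1.29) and Pitx3 -3.33 in library 3 (-6.13 to -5.44). In cold beige, Hoxb3 read 2.51 in library 4 (2.83 to 2.88), Prrx1 4.8 in library 1 (5.03 to 5.05) and Six4 1.81 in library 3 (1.15 to 1.25). In warm brown, Hoxa7 read 2.96 in library 4 (2.46 to 2.57), Meis3 -3.07 in library 1 (-0.9 to -0.27) and Tbx1 -4.11 in library 3 (-5.82 to -5.74). In cold brown, Meis2 read 3.92 in library 3 (3.81 to 3.84) and Zic1 3.8 in library 1 (4.16 to 4.3).

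The rewarming change of 13 members differed between beige and brown cells by limma's test of the difference. Among them, on the log2 scale and as beige minus brown, it was -4.26 for Pitx3, -2.16 for Hoxa4, -1.25 for Hoxa3, -1.13 for Prrx1 and -1.13 for Six4. It was 1.88 for Meis3, 0.97 for Tbx15, 0.66 for Lhx8, 0.47 for Hoxc5, 0.45 for Hoxc6, 0.45 for Meis2 and 0.3 for Pbx2.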

How the results depend on the processing

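Of 206 called member results with a fold, 99 were called under all 35 alternatives and 152 under all those outside single batches; 32 were lost without at least 1 library. Of 119 results not called, 59 were called under at least 1 alternative. Within batch 1, which has 1 warm beige library, all genes called fell to 3710 between the cold depots, 5255 for beige rewarming, 5050 for brown rewarming, 1969 for the difference of the 2 changes and 1304 between warm beige and white, and members called to 10, 13, 2 and 5 in the last 4. Fitting only warm beige and white gave 3016 genes. Quantile normalization gave 20 members for the difference of the changes.

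Signs turned with quantile normalization for En1 (-2.32), Hoxd3 (-0.11), Hoxd9 (-1.65) and Tbx2 (-0.01) between the cold depots, En1 between the warm depots (-0.15) and Tbx18 in brown rewarming (-0.19). Of these, En1 and Hoxd9 between the cold depots were called with the turned sign (adjusted p = 0.000108 and 0.0283). Signs also turned within batch 1 for Hoxc4 between the warm depots (0.18), Tbx15 in brown rewarming (0.05) and Hoxa3 in the difference of the changes (0.06), and within batch 2 for Hoxa3 in beige rewarming (-0.73). The cause was not tested. Without cold brown libraries 1 and 5 together, the cold depot difference of Hoxa4, the brown changes of Pitx3 and Irx2 and the rewarming differences of Hoxa3, Hoxc6, Meis2, Pbx2 and Six4 lost their call.

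With each library left out, members called ranged from 34 to 37 in cold beige against brown, 34 to 38 in warm beige against brown, 36 to 39 in white against brown, 17 to 23 in beige rewarming, 23 to 26 in brown rewarming, 9 to 13 in the difference, 32 to 35 in cold beige against white and 14 to 18 in warm beige against white. With a replicate block they were 36, 35, 38, 20, 25, 11, 33 and 16 in that order. With a block by the library number of the labels they were 36, 36, 38, 20, 26, 9, 34 and 15, and the calls lost were Hoxb3 between the cold depots, Hoxa9 and Meis2 in beige rewarming, Hoxc6, Lhx8, Meis2 and Six4 in the difference of the changes and Emx2 between warm beige and white. This block joined same-numbered libraries across all groups, so it did not model brown and beige pairs within a temperature. Correlations of same-numbered libraries ran from -0.11 to 0.148 between cold and warm brown, from 0.0705 to 0.35 between cold brown and cold beige and from 0.0653 to 0.205 between warm brown and warm beige by library number. Not every pair passed 0.1 and the labels name no shared mouse, so the numbers were not taken as pairs, although each brown library with a same-numbered beige library of its temperature correlated best with that one, a hint from the data, not the design. Unknown depth limits the members near the floor.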
